A study of Oryza sativa with 3 samples.

Results

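Gene expression in the stem of rice (Oryza sativa) was compared with that in the leaf blade, from 1 paired-end RNA-seq library of each. The genes described are those that both deposited tables list once under a single identifier, which gave 52299 genes. Of these, 18794 reached 1 FPKM (fragments per kilobase of transcript, scaled to the mapped fragments of the library) in stem or leaf blade and were compared. The study measured mature leaf, node and stem, and a node library from nodes I and II is quoted beside single genes. The labels describe all 3 tissues alike: total RNA was taken with Trizol from rice grown at 29 °C under 12 h of light and 12 h of dark, in a greenhouse or a plant chamber. No cultivar, age, genotype or hour of harvest is given in the sources used here, nor how many plants or internodes went into a library. With 1 library per tissue there is no replicate check, so no p-value is given and differences between plants cannot be told apart from differences between tissues.

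The leaf blade is the main photosynthetic surface of the rice plant and exports sucrose. The stem carries that sucrose, can store part of it for later use, and bears the plant's weight through thickened, lignified cell walls. A stem also holds growing internodes below each node, where cells divide, lengthen and then lay down secondary walls. Both organs are mixtures of cell types, so in these libraries fewer cells of a type and less RNA per cell cannot be told apart.

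The libraries were of similar depth, with 39880000 implied fragments in leaf blade and 43160000 in stem, read from the deposited intervals. For genes at 10 FPKM or more, the interval reached at the median 5.04% above the value in leaf blade and 4.83% in stem, and was read as counting error only. Rows with no identifier, left out here, held 4.15% of summed FPKM in leaf blade and 10.7% in stem. The marker genes of the organs ran with the labels. The 5 stem markers (OSH1, OSH15, CESA4, CESA7 and CESA9) summed to 508 FPKM in stem and 0.779 in leaf blade, and 52 genes of chlorophyll-binding and photosystem proteins summed to 11715 FPKM in stem and 25549 in leaf blade. Seed storage genes were at or near 0 in both, with none of 36 at 1 FPKM. Among 10 floral organ MADS genes, 2 reached 1 FPKM in stem and 3 in leaf blade, and those with the highest level in each ran opposite ways. MADS16 stood at 38.0 FPKM in stem and 8.93 in leaf blade, while MADS1 had 0.457 and 11.7. Floral markers were thus not at 0 in either organ, and the part of young panicle tissue in the values was not tested.

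A gene was called higher or lower at a 4-fold ratio of (FPKM + 1), a log2 ratio of 2. Ratios of weakly expressed genes come out too small on this scale. By it, 1328 genes (7.07% of those compared) were higher in stem and 1333 genes (7.09%) were lower in stem, while 16133 (85.8%) lay within 4-fold. The median log2 ratio over all genes compared was -0.08, close to no difference. The counts of called genes were nearly equal, and so were the strong ones, with 229 genes higher and 227 lower by 16-fold or more. Counting only genes whose higher tissue had at least 100 FPKM, there were 246 genes higher in stem and 200 lower. Just inside the threshold, within 0.1 of it on the log2 scale, stood 105 of the higher and 110 of the lower genes, and just outside it stood 124 and 143 others. Of the higher genes, 176 were listed at 0 in leaf blade, and of the lower genes 235 were listed at 0 in stem. For those above 0 in both, the implied fragments ran against the FPKM in 22 of 1152 higher and 15 of 1098 lower genes, and no such called gene is named below.

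**Figure D1:**
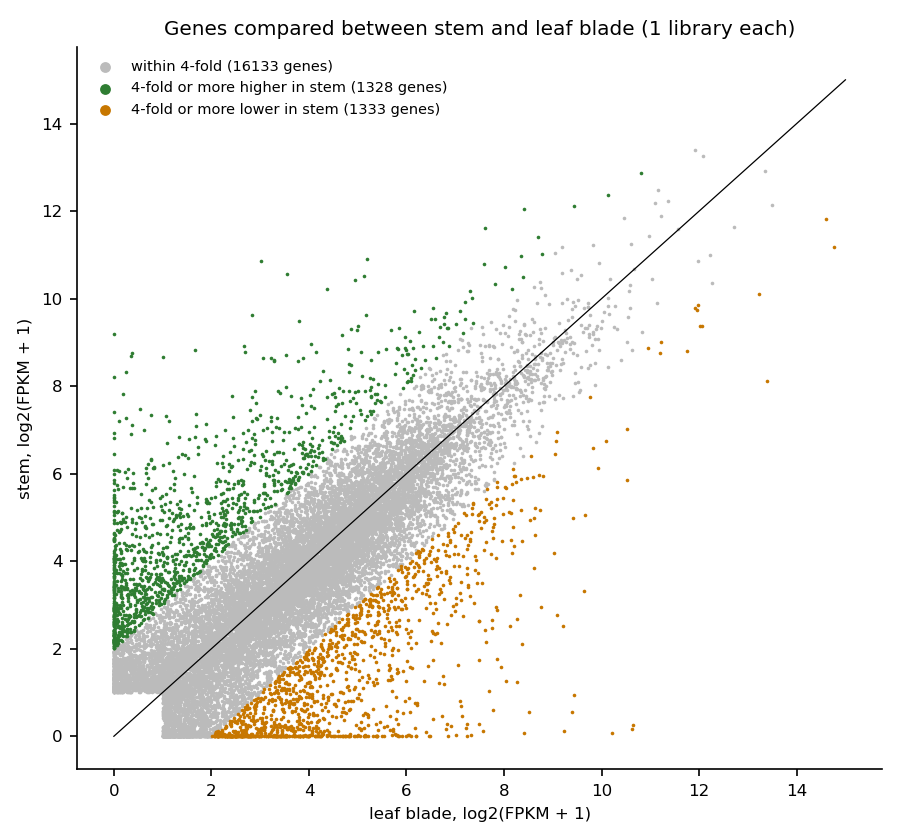
FPKM of the 18794 genes compared, as log2(FPKM + 1), in leaf blade (horizontal axis) and stem (vertical axis), with the line of equal values. Green points are the 1328 genes 4-fold or more higher in stem, orange points the 1333 genes lower, and grey points the 16133 within 4-fold, which lie in a band around the line.

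The genes with the largest ratios in favour of stem had little or no signal in the leaf blade. First among the described genes at 10 FPKM or more was BBTI7 (LOC_Os01g03390, chromosome 1, 1365508 to 1366503), a Bowman-Birk type trypsin inhibitor, with 582 FPKM in stem (interval 575 to 590.1), 0 listed in leaf blade and 66.7 in node. OSH15 (LOC_Os07g03770, chromosome 7, 1566064 to 1572187), a KNOTTED1-like homeobox gene that acts in internode growth, stood at 411 FPKM in stem (406 to 415), 0.284 in leaf blade (0.157 to 0.411) and 145 in node, a log2 ratio of 8.33 for stem over leaf blade. A plastocyanin-like domain gene, LOC_Os11g24140, of a class of small copper-protein relatives at the cell surface, reached 319 FPKM in stem, 0.180 in leaf blade and 8.397 in node. For this gene the stem stood apart from node as well as from leaf blade, whereas for OSH15 the node was intermediate.

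Enzymes made up most of the other genes at this end. The most abundant was LOC_Os12g08760 (chromosome 12, 4499736 to 4503990), described as a carboxyvinyl-carboxyphosphonate phosphorylmutase, with 1859 FPKM in stem (1849 to 1868), 7.09 in leaf blade (6.38 to 7.79) and 417 in node, a log2 ratio of 7.84. The cytochrome P450 gene LOC_Os03g45619 measured 224 FPKM in stem, 0.134 in leaf blade and 11.6 in node. An adenylyl-sulfate kinase gene, LOC_Os11g41650, whose product makes the activated sulfate used to sulfate other molecules, reached 168 FPKM in stem and 52.4 in node, with 0 listed in leaf blade. Chalcone synthase, the first enzyme of flavonoid synthesis, had with LOC_Os11g32650 176 FPKM in stem compared with 0.440 in leaf blade and 18.7 in node. The O-methyltransferase gene LOC_Os05g43930 followed the same order, at 119 FPKM in stem, 4.69 in node and 0.271 in leaf blade. All 5 of these enzymes were highest in stem of the 3 tissues. The glucose-1-phosphate adenylyltransferase genes LOC_Os05g50380 and LOC_Os09g12660, of the enzyme that makes ADP-glucose for starch, stood at 1502 and 794 FPKM in stem compared with 10.7 and 6.11 in leaf blade. Another large-subunit gene of this enzyme, LOC_Os03g52460, was on the other side, with 4.30 FPKM in stem and 66.9 in leaf blade. The remaining genes of the 12 were a harpin-induced domain gene, LOC_Os02g33550, with 153 FPKM in stem and 0.183 in leaf blade, and a core histone gene, LOC_Os03g17084, at 112 in stem and listed at 0 in leaf blade. Histone genes have near-identical copies, so the value of a single copy is uncertain.

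At the other end stood genes of water transport, defence and light response that the stem library hardly held. The aquaporin PIP2;7 (LOC_Os09g36930, chromosome 9, 21310129 to 21311548), a plasma membrane water channel, stood at 0.122 FPKM in stem (0.0297 to 0.214), 1579 in leaf blade (1568 to 1589.6) and 3.09 in node, a log2 ratio of -10.46. BBTI1 (LOC_Os01g03310, chromosome 1, 1338229 to 1339139), of the same inhibitor family as BBTI7, stood at 0.0853 FPKM in stem and 597 in leaf blade (585 to 609.6), a log2 ratio of -9.11. Osmotin, an antifungal protein of the thaumatin class, had with LOC_Os12g38170 0.926 FPKM in stem, 0.773 in node and 694 in leaf blade. A glycine-rich cell wall protein gene, LOC_Os01g06310, stood at 4.77 FPKM in stem, 72.8 in node and 588 in leaf blade. In each of these genes leaf blade was far above stem, and node, where it had a value, was below leaf blade too.

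Regulators and single metabolic genes completed the lower end. WRKY76 (LOC_Os09g25060) and WRKY62 (LOC_Os09g25070), which restrain defence responses in rice and lie next to each other on chromosome 9, stood at 0.223 and 0.138 FPKM in stem compared with 178 and 148 in leaf blade. The CCT and B-box gene LOC_Os02g08150 stood at 0.0896 FPKM in stem and 188 in leaf blade. Tyrosine aminotransferase gene LOC_Os02g20360, of tyrosine breakdown, stood at 0.211 FPKM in stem and 149.7 in leaf blade, and the potassium transporter gene LOC_Os03g37830 had 0.178 and 120.3. Node values of these last genes were 0.407 and 0.416 FPKM, near those of stem. A heavy metal-associated domain gene, LOC_Os09g09830, stood at 1.37 FPKM in stem compared with 306, and a gene described as serine/arginine repetitive matrix protein 1, LOC_Os06g46149, had 0.504 against 218; both loci overlap another row. A Rubisco small chain gene, LOC_Os12g19470, had 0 listed in stem against 149.7 FPKM in leaf blade, and near-identical copies could hold its fragments.

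**Figure D2:**
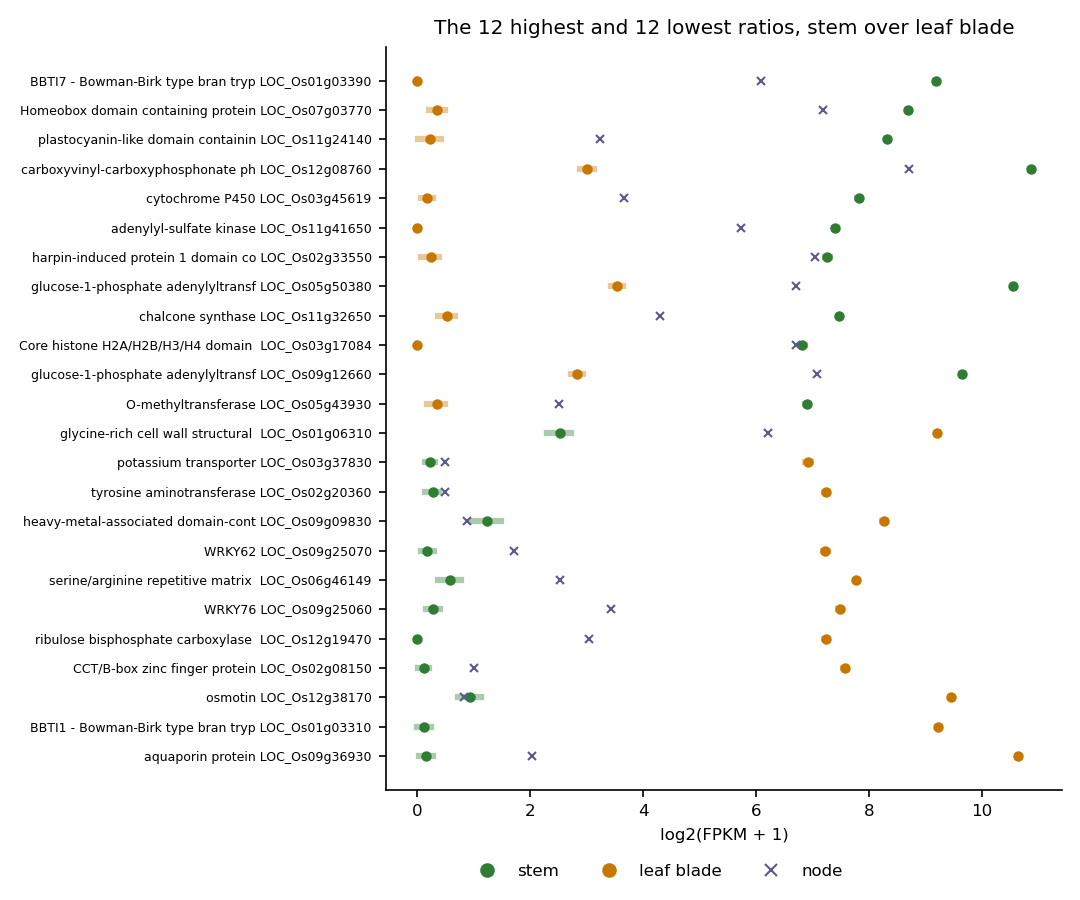
FPKM, as log2(FPKM + 1), in stem (green), leaf blade (orange) and node (crosses) of the 12 genes with the highest and the 12 with the lowest ratio of stem over leaf blade among described genes at 10 FPKM or more; pale bars are the deposited intervals. The genes run from BBTI7 (582 FPKM in stem, 0 in leaf blade) to PIP2;7 (0.122 in stem, 1579 in leaf blade). All 24 were chosen by their ratio, so their stem and leaf blade intervals lie apart by that choice.

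The gene descriptions were grouped into 86 families, which held 5069 of the genes compared and 958 of the 2661 called. A family's counts are read against the 7.07% higher and 7.09% lower over all genes compared, and its median against -0.08. Genes enter these counts through the tissue in which they reach 1 FPKM, so the counts describe expressed members and not whole families. They also depend on the pseudocount, and with 5 FPKM in place of 1 the number higher was 3 for RALF peptides, 3 for GDSL lipases, 2 for bZIP factors, 2 for IQ-motif proteins, 4 for laccases and dirigent proteins and 6 for fasciclin, COBRA and arabinogalactan proteins.

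Families of lignin and other phenolics leaned to stem. Lignin is made from phenylalanine and polymerised in the wall by laccases and peroxidases. Dirigent proteins help to join phenolic subunits, and their part in lignin was not tested here. Of 22 laccase and dirigent genes compared, out of 75 listed, 11 were higher in stem and none was lower, with a median log2 ratio of 2.02. Dirigent genes made up 17 of these, with 7 higher, and laccases 5, with 4 higher. The laccase gene LOC_Os01g63190 measured 73.3 FPKM in stem, 0.613 in leaf blade and 6.51 in node, so it was low in node too. Dirigent gene LOC_Os11g07830 stood at 147 FPKM in stem and 130.5 in node against 1.18 in leaf blade, and LOC_Os07g42520 had 227 and 116 against 9.61. Monolignol enzymes, which make the lignin subunits, gave a mixed picture, with 4 of 15 higher, 1 lower and a median of 0.33. The phenylalanine ammonia-lyase gene LOC_Os02g41630, of the enzyme that opens the pathway, reached 1183 FPKM in stem and 19.7 in leaf blade. Another gene of that enzyme, LOC_Os12g33610, was listed at 0 in stem and had 27.1 in leaf blade, so genes of the same enzyme were called on opposite sides. Cinnamoyl-CoA reductase gene LOC_Os08g34280 measured 69.1 FPKM in stem and 7.64 in leaf blade.

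Wall glycoproteins and several wall enzymes were also more often higher than lower in stem. Among fasciclin-like, COBRA and arabinogalactan proteins, which sit on the outside of the plasma membrane and act in wall assembly, 12 of 26 genes (46.2%) were higher in stem and none lower, with a median of 1.71. The fasciclin genes LOC_Os05g48900 and LOC_Os08g23180 stood at 114 and 113 FPKM in stem compared with 1.52 and 2.17 in leaf blade, and 92.1 and 98.1 in node. Fasciclin descriptions alone counted 10 of 15 higher, and COBRA descriptions 2 of 9. Cellulose synthases and their relatives had 8 of 26 higher and 2 lower. The lower members were the synthase-like genes CSLE6, with 0 listed in stem and 10.5 FPKM in leaf blade, and CSLA3, at 1.08 and 10.4. CESA8 (LOC_Os07g10770) reached 82.8 FPKM in stem compared with 1.47. GDSL lipases, esterases of the cuticle and wall, had 11 of 39 higher and none lower, led by LOC_Os06g50950 at 139 FPKM in stem, 2.73 in leaf blade and 239 in node. Expansins, which loosen walls for growth, had 5 of 15 higher and 1 lower, among them LOC_Os03g04020 (363 FPKM in stem, 27.1 in leaf blade).

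Pectin enzymes and wall glycosyltransferases build and trim the other wall sugars. Pectin enzymes had 3 of 28 higher and 1 lower, and glycosyltransferases of the wall had 11 higher and 4 lower of 118. The pectin gene LOC_Os05g29790 stood at 7.40 FPKM in stem, 0.399 in leaf blade and 51.8 in node, so node was the highest tissue.

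Class III peroxidases split. They oxidise phenolics in the wall and also act in defence, and 19 of 52 (36.5%) were higher in stem while 10 (19.2%) were lower, both above the shares over all genes. LOC_Os10g02070 stood at 215 FPKM in stem and 6.15 in leaf blade, and LOC_Os05g04380 had 84.4 and 1.73. On the other side LOC_Os06g20150 and LOC_Os01g22249 stood at 0.0184 and 0.0325 FPKM in stem compared with 53.8 and 53.4 in leaf blade. Glycosyl hydrolases of family 17, a class that includes beta-1,3-glucanases, enzymes that cut callose and fungal walls, had 5 of 15 lower in stem and none higher. Their median was -0.36, and 0.54 without overlapping loci. Genes described as glucan endo-1,3-beta-glucosidase precursor, also beta-1,3-glucanases, had 3 of 15 higher and 1 lower, with a median of 0.82. LOC_Os01g51570 stood at 0.387 FPKM in stem, 49.7 in leaf blade and 22.9 in node. Wall-associated kinases had no higher gene and 9 of 39 lower, with a median of -1.56. Typical members are receptor kinases that span the membrane and bind wall pectin. The family as counted also holds genes described as receptor-like cytoplasmic kinases, such as OsWAK81 and OsWAK85, both lower. OsWAK33 (LOC_Os04g21820) stood at 0.0269 FPKM in stem and 31.1 in leaf blade. Without loci that overlap another row, 5 wall-associated kinases were lower.

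Microtubules guide the cellulose synthases and pull chromosomes apart. Tubulin genes numbered 17 among the genes compared, of which 9 were higher in stem and none lower, with a median of 2.46. The most abundant, LOC_Os11g14220, reached 1764 FPKM in stem, 193 in leaf blade and 1545 in node, and LOC_Os03g51600 had 1149, 158 and 659.9. LOC_Os01g18050 had the largest ratio, with 79.9 FPKM in stem and 0.696 in leaf blade. Tubulin genes are close copies of each other, so fragments could be assigned between them, although none of those compared was lower. Actin and actin-associated genes stood differently, with none of 22 higher and 1 lower, and a median of 0.54.

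TPX2 and IQ-motif genes, of families added after their values were seen, were also more often higher than lower in stem. TPX2, kinesin-targeting and other microtubule-associated genes had 7 of 13 (53.8%) higher and none lower. LOC_Os06g40450, described as targeting protein for Xklp2, measured 86.4 FPKM in stem, 81.0 in node and 0 listed in leaf blade, and LOC_Os11g38010 of the same description had 19.6, 18.9 and 0.0357. Stem and node were at about the same level in both genes. IQ-motif proteins, some of which tether calmodulin to microtubules, had 8 of 21 higher and 1 lower, with a median of 1.81. LOC_Os01g53980 stood at 19.8 FPKM in stem and 0.721 in leaf blade. Kinesins, the motors of microtubules, were nearer the 7.07% over all genes, with 3 of 27 higher (11.1%) and none lower. Their highest ratio was that of LOC_Os11g42800 (96.4 FPKM in stem, 2.31 in leaf blade). With a pseudocount of 5 FPKM 1 kinesin was higher, and with a filter at 5 FPKM the family median went from 0.44 to -0.22. Cell cycle genes were rarely called. Of the cyclins and cell cycle kinases, 2 of 58 were higher and 1 was lower. No gene of 24 for DNA replication was higher and 1 was lower. Core histones had 2 higher and 2 lower of 39. These shares lay below those over all genes.

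**Figure D3:**
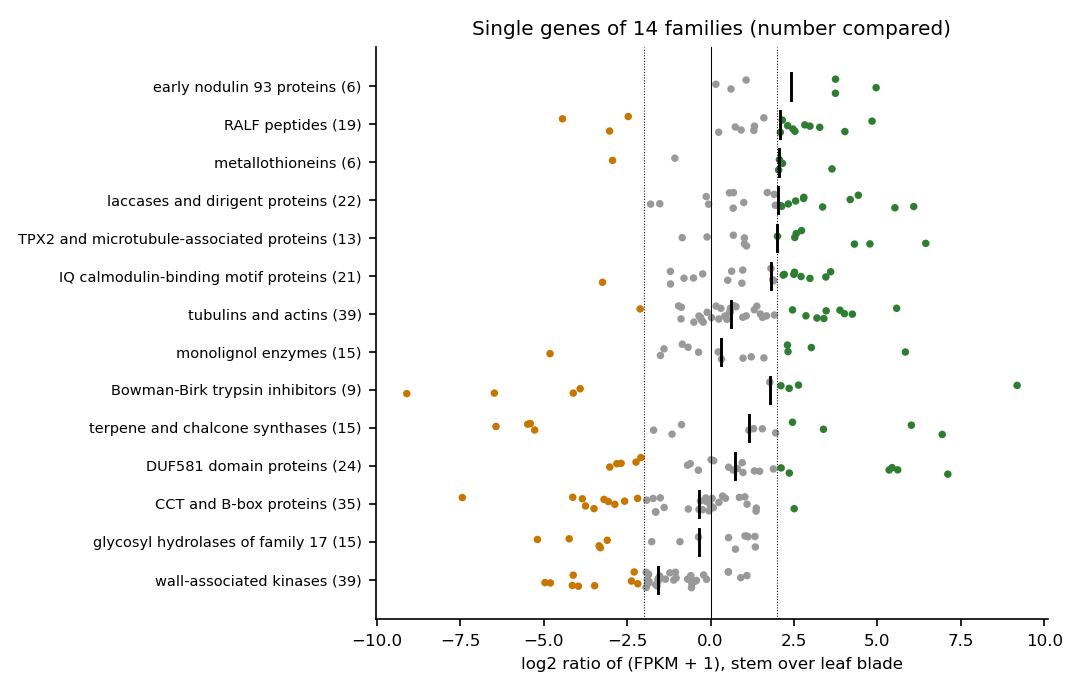
Log2 ratio of (FPKM + 1), stem over leaf blade, of each gene compared in 14 families, with dotted lines at the 4-fold thresholds and a black bar at each family's median; green and orange points are genes called higher and lower. Laccase and dirigent genes have no point beyond the lower threshold, wall-associated kinases have none beyond the upper one, and the trypsin inhibitors fall on both sides, from -9.11 to 9.19. The 14 families were chosen with their values known.

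Starch and sugar genes differed by isoform. Starch and glycogen enzymes had 9 of 35 higher in stem and 3 lower. Besides the ADP-glucose genes above, the beta-amylase gene LOC_Os03g22790, of starch breakdown, reached 219 FPKM in stem and 4.38 in leaf blade, whereas the beta-amylase gene LOC_Os07g35880 was listed at 0 in stem and had 10.7 in leaf blade. The grain starch synthase WX (LOC_Os06g04200), whose locus overlaps another row, was low in both, at 3.25 and 5.28 FPKM. Sucrose and trehalose enzymes had 7 of 28 higher and 2 lower. A trehalose synthase gene, LOC_Os09g23350, measured 238 FPKM in stem, 9.35 in leaf blade and 131 in node. Both lower genes were neutral or alkaline invertases, which split sucrose in the cell. LOC_Os04g35280 stood at 0.0184 FPKM in stem and 50.9 in leaf blade, and LOC_Os01g22900 had 10.4 and 117. The sucrose transporter SUT1 (LOC_Os03g07480) was near even, with 126 FPKM in stem and 104 in leaf blade. SWEET exporters had 1 gene on each side, LOC_Os11g31190 at 27.5 in stem against 2.72, and LOC_Os05g35140 listed at 0 in stem and at 87.7 in leaf blade.

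Small secreted proteins included close relatives called in opposite directions. Bowman-Birk inhibitors block trypsin-like proteases and act against insects and pathogens. Of the 9 genes compared, 4 were higher in stem, 4 were lower and BBTI5 was within 4-fold. Along a stretch of chromosome 1, BBTI1 to BBTI4 were lower in stem and the nearby BBTI7 was higher. BBTI2 (LOC_Os01g03320) and BBTI3 (LOC_Os01g03330) were listed at 0 in stem and had 88.4 and 16.3 FPKM in leaf blade. BBTI4 (LOC_Os01g03340) stood at 3.38 FPKM in stem and 64.8 in leaf blade. The most abundant member, BBTI12 (LOC_Os01g04050), measured 1448 FPKM in stem and 335 in leaf blade. Fragments could be shared among these close copies, and the genes compared summed to 2213 FPKM in stem and 1132 in leaf blade.

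RALF peptides, which bind receptor kinases and raise the pH of the wall to restrain cell expansion, had 10 of 19 genes compared (52.6%) higher and 3 lower, of 38 listed. RALFL9 (LOC_Os01g15320) stood at 106 FPKM in stem, 2.72 in leaf blade and 209.7 in node, and RALFL23 (LOC_Os11g26190) had 18.4, 0.192 and 36.6. The node was above the stem in both. The lower members were more abundant: RALFL28 (LOC_Os06g29730) reached 30.5 FPKM in stem and 683 in leaf blade, and RALFL45 (LOC_Os12g11660) had 16.4 and 141. Summed FPKM therefore ran against the counts, at 333 in stem and 973 in leaf blade.

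Metallothioneins, cysteine-rich proteins that hold copper and zinc, had 4 of 6 higher and 1 lower. LOC_Os05g11320 measured 7543 FPKM in stem and 1804 in leaf blade, and LOC_Os11g47809 had 449 and 3455. Lipid transfer proteins (LTPL), which carry wax and cutin precursors, had 9 of 45 higher and 8 lower. LTPL104 (LOC_Os05g06780) stood at 483 FPKM in stem and 5.34 in leaf blade, while LTPL8 (LOC_Os11g02400) had 5.78 and 545 and LTPL14 (LOC_Os12g02340) had 6.77 and 431. The defensin gene DEF8 (LOC_Os03g03810), of antimicrobial peptides, reached 665 FPKM in stem, 31.3 in leaf blade and 1556 in node.

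**Figure D4:**
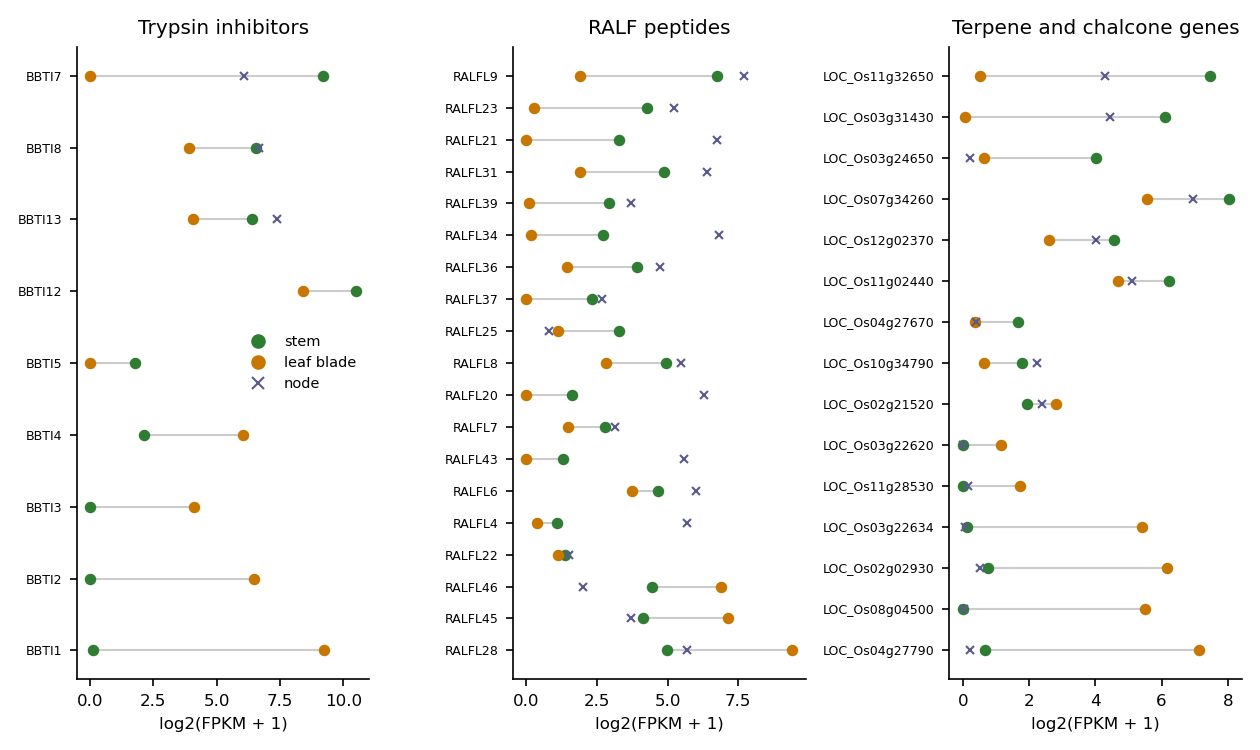
FPKM, as log2(FPKM + 1), in stem (green), leaf blade (orange) and node (crosses, where the node table lists the gene once) of each compared trypsin inhibitor, RALF peptide and terpene or chalcone gene, sorted by ratio. In each panel some genes have stem far to the right of leaf blade and others the reverse, as for BBTI7 (582 FPKM in stem, 0 in leaf blade) and BBTI1 (0.0853 and 597).

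Transcription factor families leaned in both directions. AP2 domain factors had 16 of 57 (28.1%) higher in stem and 3 lower, and bZIP factors had 9 of 36 higher and none lower. The bZIP gene LOC_Os08g26880 measured 387 FPKM in stem, 8.72 in leaf blade and 52.6 in node, and the AP2 gene LOC_Os03g08470 had 216, 19.6 and 256. Stem was highest for the first and node for the second. On the leaf side stood WRKY factors, which act in defence and senescence, with 17 of 71 (23.9%) lower and 5 higher, and a median of -1.03. WRKY117 (LOC_Os08g09840) stood at 0.147 FPKM in stem and 71.1 in leaf blade, against WRKY34 (LOC_Os02g43560) at 9.90 and 0.0361 on the other side. NAC factors had 4 higher and 10 lower of 54, and bHLH factors had 4 and 8 of 52. MYB factors were even, with 8 higher and 8 lower of 96. Their most abundant named member, LOC_Os08g43550, reached 468 FPKM in stem and 62.0 in leaf blade.

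Homeobox genes were called in both directions. In the whole family 11 of 59 were higher and 9 lower, both above the shares over all genes. Of 7 genes described as knotted-1, a class of which some members act in meristems, 3 were higher and 1 was lower. LOC_Os03g03164 measured 36.3 FPKM in stem and 0.269 in leaf blade, whereas the lower one, LOC_Os06g43860, chosen after its values were seen, had 59.6 and 384. OSH1 (LOC_Os03g51690), which keeps meristem cells undifferentiated, had 19.6 in stem, 0.192 in leaf blade and 131 in node. OSH1 and OSH15 are described only as homeobox domain genes and are not among the 7. Homeobox genes with START domains, a class known for roles in the epidermis and vasculature, had 4 of 6 lower and none higher, with LOC_Os08g08820 (1.47 FPKM in stem, 40.3 in leaf blade). Growth-regulating, TCP, SBP and YABBY factors were mixed, at 5 higher and 3 lower of 31. OsSPL12 (LOC_Os06g49010) stood at 171 FPKM in stem and 22.2 in leaf blade, while the TCP gene LOC_Os05g43760 had 0.648 and 13.9. DUF581 domain genes, whose products in Arabidopsis bind the SnRK1 kinase, had 6 of 24 higher and 5 lower. The neighbours LOC_Os02g46180 and LOC_Os02g46190 on chromosome 2 reached 147 and 63.3 FPKM in stem compared with 0.0735 and 0.317 in leaf blade, whereas LOC_Os04g49660 on chromosome 4 had 12.7 against 110.5.

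Hd3a was on the leaf side and a pair of MADS-box genes of the floral transition on the stem side. Florigens are proteins made in leaves that move to the shoot tip, where they switch on those MADS-box genes. The florigen gene Hd3a (LOC_Os06g06320) had 1.17 FPKM in stem, 29.8 in leaf blade and 21.2 in node. The floral transition gene OsMADS15 (LOC_Os07g01820) ran the other way, at 127 FPKM in stem, 0.542 in leaf blade and 121 in node. OsMADS14 (LOC_Os03g54160), whose locus overlaps another row, stood at 743 FPKM in stem and 89.8 in leaf blade, and OsMADS18 (LOC_Os07g41370) had 97.3 and 68.3. Over all MADS-box genes 2 of 21 were higher and 3 lower. Without overlapping loci, 1 was higher and 1 was lower.

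CCT and B-box proteins, regulators of light response and flowering, had 10 of 35 (28.6%) lower in stem and 1 higher. LOC_Os04g41560 had the highest level, at 129 FPKM in stem, 1470.1 in leaf blade and 79.4 in node. Hd1 (LOC_Os06g16370), a flowering regulator of this family, was even, with 3.23 FPKM in stem and 3.26 in leaf blade, and Ghd7 (LOC_Os07g15770) was listed at 0 in stem and at 0.512 in leaf blade. Many of these genes cycle over the day. The clock genes LHY (LOC_Os08g06110) and PRR1 (LOC_Os02g40510) reached 47.2 and 36.9 FPKM in stem compared with 15.4 and 59.5 in leaf blade, and the part of the hour of harvest in these differences was not tested.

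Hormone genes did not move as a block. Among 99 auxin response genes, 19 were higher and 5 lower. Auxin sets growth and vascular patterning. LOC_Os08g44750, described as auxin-induced protein 5NG4, measured 52.6 FPKM in stem, 0.0428 in leaf blade and 51.7 in node. Gibberellin genes had 11 of 55 higher and 4 lower. The growth repressor SLR1 (LOC_Os03g49990) stood at 84.3 FPKM in stem and 29.3 in leaf blade, under 4-fold. SD1 (LOC_Os01g66100), the gibberellin 20-oxidase of semidwarf rice, whose locus overlaps another row, stood at 3.19 FPKM in stem, 20.3 in leaf blade and 66.8 in node, so node and not stem was the tissue above leaf blade. Cytokinin and two-component genes were split, at 8 higher and 10 lower of 50, and the type-A response regulator OsRR4 (LOC_Os01g72330), also in an overlapping locus, measured 51.3 FPKM in stem and 7.39 in leaf blade. Ethylene genes had 2 higher and 4 lower of 48. The ethylene-forming oxidase gene LOC_Os05g05680 stood at 2.35 FPKM in stem and 178 in leaf blade, whereas LOC_Os01g39860 of the same enzyme had 17.02 and 0.905. Of the strigolactone genes, which control branching, the receptor D14 (LOC_Os03g10620) in an overlapping locus reached 703 FPKM in stem and 391 in leaf blade, and D3 (LOC_Os06g06050) had 8.68 and 3.72, both under 4-fold.

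Photosynthesis genes were more often lower than higher in stem, and their summed level in stem, given above, was far from 0. Light harvesting and photosystem proteins had 14 of 43 lower and 3 higher, with a median of -1.65. Photosystem I subunit N (LOC_Os12g08770) measured 107 FPKM in stem, 1095 in leaf blade and 33.2 in node. A photosystem II 10 kDa polypeptide gene, LOC_Os07g05360, ran against its family, with 1917 FPKM in stem and 35.6 in leaf blade. Its neighbour LOC_Os07g05365, of the same description, had 9.06 and 0.294. Neither gene has a node value, and how fragments were split between them was not tested. Among genes found once in all 3 tables, 1 gene of the family was higher. Thylakoid electron carriers had 5 of 24 lower and none higher, with a median of -1.44. Among the lower genes, LOC_Os10g21326 and LOC_Os08g15292 are both described as cytochrome b6-f complex subunit 4. They had 1.05 and 1.06 FPKM in stem, 16.98 and 13.95 in leaf blade, and 0.103 each in node. Whether they share fragments was not tested, so the 5 may not be separate signals. The ferredoxin-NADP reductase gene LOC_Os06g01850, which overlaps another row, stood at 26.7 FPKM in stem and 217 in leaf blade. The 3 Rubisco small chain genes summed to 1400 FPKM in stem and 2474 in leaf blade. Most of this lay in 1 gene, as the highest single values were 1394 and 2096. Of the other copies, RBCS2 (LOC_Os12g17600) stood at 6.78 FPKM in stem and 228 in leaf blade. Near-identical copies make a single value uncertain. Thioredoxins and glutaredoxins had 4 higher and 9 lower of 67. The thioredoxin gene LOC_Os07g29410 measured 32.1 FPKM in stem and 809.5 in leaf blade, while the glutaredoxin OsGrx_C17 (LOC_Os11g43520) had 74.3 and 1.20.

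Nitrogen enzymes, like those of starch, had genes on both sides. Of 15 genes for glutamine, glutamate and asparagine, 4 were higher and 3 lower. Asparagine synthetase gene LOC_Os03g18130, which makes a transport form of nitrogen, stood at 39.9 FPKM in stem and 1.23 in leaf blade, and the glutamine synthetase gene LOC_Os04g56400 had 16.3 and 168.

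Families of heat shock and of defence signalling differed in their calls. Heat shock proteins and factors had 19 of 98 lower and 3 higher. Within them DnaJ proteins, co-chaperones of HSP70, had 10 of 49 lower and 1 higher, whereas the small hsp20 proteins had 2 lower and 2 higher of 12. The DnaJ gene LOC_Os01g53020 stood at 5.72 FPKM in stem and 142 in leaf blade. VQ proteins, partners of WRKY factors, had 6 of 23 lower and 1 higher, with LOC_Os06g41450 (6.09 FPKM in stem, 92.5 in leaf blade). Receptor-like kinases had 23 of 220 (10.5%) lower and 9 higher, against 7.09% over all genes on the lower side. The receptor kinase gene LOC_Os02g40240 stood at 5.39 FPKM in stem and 307 in leaf blade. Resistance proteins of the NB-ARC class had 11 of 146 lower (7.53%), about the share over all genes, and 4 higher.

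Proteins that act on pathogens directly were split. Chitinases and thaumatins, which attack fungal walls and membranes, had 5 of 23 higher and 5 lower. LOC_Os03g14030 stood at 20.3 FPKM in stem, 0.0708 in leaf blade and 24.4 in node, while LOC_Os12g43440 had 4.04, 94.7 and 1.70. The node was near the stem for both genes. Jacalins, which are sugar-binding lectins, and cupins had 4 of 28 higher and 6 lower. LOC_Os01g24710 reached 68.9 FPKM in stem and 0.735 in leaf blade, and LOC_Os08g13440 had 20.9 and 331. Harpin-induced domain proteins, related to a tobacco gene of the hypersensitive response, had 8 of 31 higher and 4 lower, with LOC_Os11g05860 at 461 FPKM in stem, 27.0 in leaf blade and 319 in node.

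Jasmonate is made from linolenic acid by lipoxygenases and further enzymes, and it promotes wound responses. Desaturases and lipoxygenases had 4 of 16 lower in stem and none higher, and 1 was lower without overlapping loci. The lipoxygenase gene LOC_Os02g10120 stood at 0.847 FPKM in stem, 64.9 in leaf blade and 0.550 in node. The 12-oxophytodienoate reductase gene LOC_Os01g27230 stood at 1.39 FPKM in stem, 62.6 in leaf blade and 0.636 in node. Both genes were low in stem and node alike. Genes of the jasmonate ZIM family were about even, with none of 11 higher, 1 lower (9.09%) and a median of 0.11.

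Enzymes of specialised metabolism were called in both directions within a family. Terpene and chalcone genes had 4 of 15 higher and 4 lower, and all 4 lower genes were terpene synthases, which make volatile and defensive terpenoids. LOC_Os04g27790 stood at 0.607 FPKM in stem and 138 in leaf blade, and LOC_Os02g02930 had 0.705 and 71.2. In stem the terpene synthase gene LOC_Os03g31430 had 67.0 FPKM against 0.0493 in leaf blade. Both chalcone synthase genes compared were higher in stem. The one not yet given, LOC_Os07g34260, measured 259 FPKM in stem and 46.4 in leaf blade. Cytochrome P450 enzymes, which oxidise hormones, lipids and defence compounds, had 16 of 136 higher (11.8%) and 26 lower (19.1%). LOC_Os04g09430 stood at 81.2 FPKM in stem, 1.88 in leaf blade and 4.64 in node, and LOC_Os11g41710 was listed at 0 in stem and had 67.5 in leaf blade. UDP-glucosyl transferases, which attach glucose to small molecules, had 7 higher and 14 lower of 91. LOC_Os01g08440 reached 439 FPKM in stem, 5.40 in leaf blade and 55.1 in node. Glutathione S-transferases, which detoxify compounds, had 3 higher and 7 lower of 36. LOC_Os01g27210 measured 292 FPKM in stem, 37.0 in leaf blade and 65.4 in node, and LOC_Os07g28480 had 10.02, 107 and 46.7. BAHD-type transferases, which acylate phenolics and wall sugars, had 7 of 35 higher and 4 lower, with LOC_Os01g18744 (196 FPKM in stem, 6.53 in leaf blade).

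Transporter families had genes called on both sides, many at shares near the 7.07% higher and 7.09% lower over all genes. For aquaporins, amino acid transporters and MATE transporters the shares lay between 8.33% and 12.5%. Further from them were potassium transporters and channels, with 20% lower, and peptide and nitrate transporters, with 16.7% higher. Aquaporins had 3 of 24 higher and 2 lower, and against PIP2;7 stood LOC_Os01g13130 (398 FPKM in stem, 8.27 in leaf blade). Potassium transporters and channels had 2 higher and 6 lower of 30. Peptide and nitrate transporters had 7 higher and 3 lower of 42, with LOC_Os10g40600 (56.3 FPKM in stem, 5.27 in leaf blade), and LOC_Os01g37590 at 0.215 and 113. Amino acid transporters had 6 higher and 6 lower of 54. LOC_Os02g44980 stood at 237 FPKM in stem and 31.3 in leaf blade, and LOC_Os05g34980 had 4.73 and 56.9. MATE transporters, which export organic acids and other metabolites, had 2 and 3 of 24. LOC_Os08g37432 reached 29.9 FPKM in stem and 19.6 in node, with 0 listed in leaf blade. ABC transporters, pumps driven by ATP, had 2 of 45 higher (4.44%) and 5 lower (11.1%), against 7.07% and 7.09% over all genes. With a pseudocount of 5 FPKM, 1 was higher and 2 were lower. LOC_Os11g39020 stood at 5.04 FPKM in stem and 98.5 in leaf blade.

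Heavy metal-associated domain proteins, which bind metals by a cysteine pair, had 11 of 36 (30.6%) higher and 4 lower. LOC_Os12g23280 reached 399 FPKM in stem, 7.32 in leaf blade and 233 in node. Metal transporters had 2 higher (6.45%) and 1 lower (3.23%) of 31, below the shares over all genes. The neighbours LOC_Os05g39560 and LOC_Os05g39540 on chromosome 5, both described as metal cation transporters, measured 65.8 and 14.5 FPKM in stem compared with 1.30 and 0.103 in leaf blade. Genes described only as transporter family proteins had 11 of 48 lower and 3 higher, with LOC_Os07g39350 (1.05 FPKM in stem, 207 in leaf blade).

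Families of basic cell functions had few genes called. Ribosomal proteins had 3 of 266 higher and 2 lower, pentatricopeptide repeat proteins, which process organelle RNA, had 2 and 6 of 245, and RNA recognition motif proteins had 4 and 4 of 132. F-box proteins, which select targets for degradation, had 7 higher and 5 lower of 291. All these shares were below those over all genes compared. Transposable element genes were near them, with 6.01% higher and 6.17% lower of 616. Below the threshold, 190 of 266 ribosomal protein genes had a log2 ratio under 0, with a median of -0.25. So had 182 of 245 pentatricopeptide genes (median -0.29) and 84 of 132 RNA recognition motif genes (-0.18). The median of F-box genes was 0.06, and that over all genes was -0.08.

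**Figure D5:**
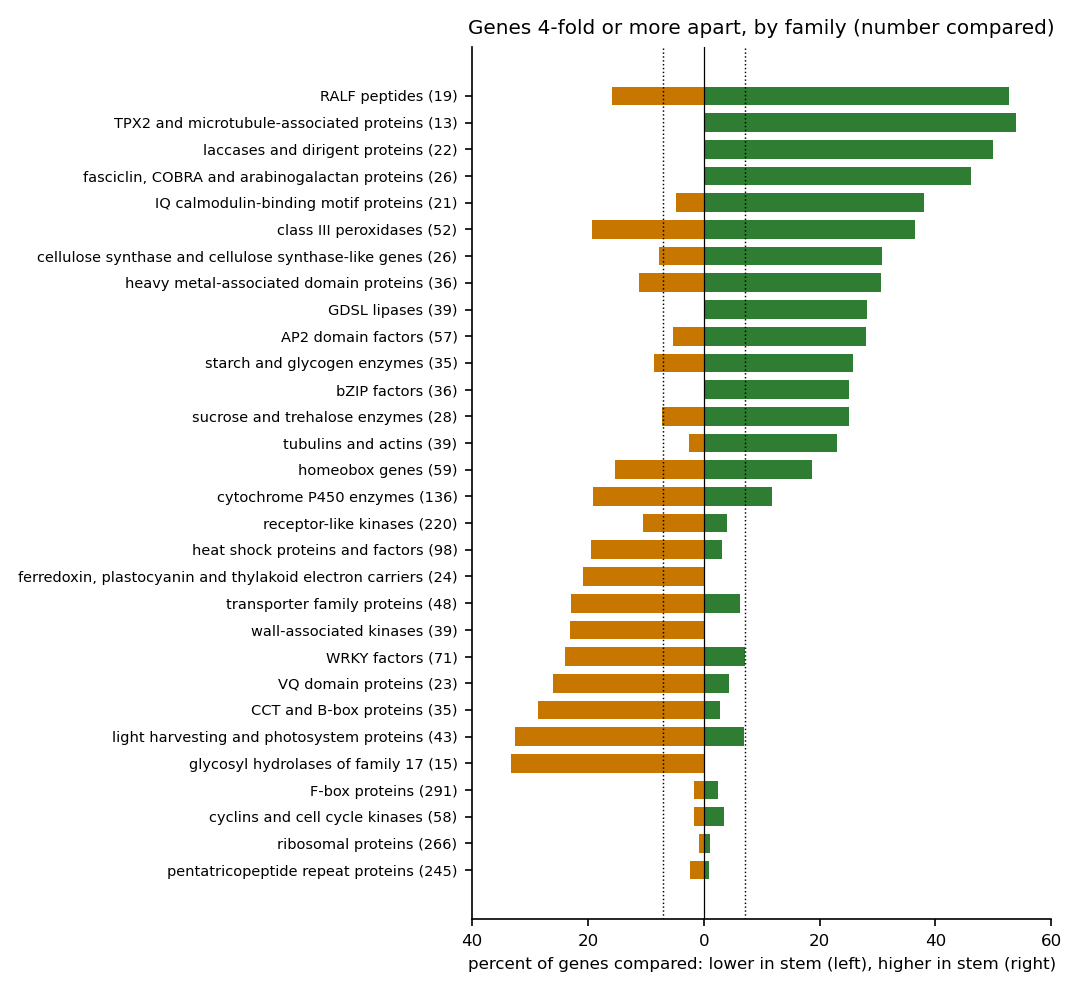
Percent of the genes compared in each of 30 families, chosen with their values known, that were 4-fold or more higher (green, right) or lower (orange, left) in stem than in leaf blade, with the number compared in brackets; dotted lines mark 7.07% and 7.09%, the shares over all genes. RALF peptides (52.6% higher) and laccases and dirigent proteins (11 of 22) extend far to the right, glycosyl hydrolases of family 17 (33.3% lower) to the left, and ribosomal proteins (1.13% and 0.75%) are near 0.

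Some called genes also lay next to each other among the genes compared, with other genes possible between them. The next compared gene along the chromosome was called in the same direction for 141 of 1328 higher genes (10.6%) and 171 of 1332 lower genes (12.8%), against 7.07% and 7.09% over all genes. Runs of 3 or more neighbours called alike numbered 42, of which 15 were higher and 27 lower in stem, and the longest held 4 genes. Some runs hold loci that overlap, such as LOC_Os11g01590 and LOC_Os11g01594, and overlapping loci can share fragments. Some runs are tandem copies of a gene, and copies can share fragments too. In one run on chromosome 6, the early nodulin 93 genes LOC_Os06g04990, LOC_Os06g05000 and LOC_Os06g05010 had 45.2, 57.8 and 38.2 FPKM in stem compared with 0.481, 3.40 and 1.93 in leaf blade. Another, on chromosome 3, held the potassium transporter gene LOC_Os03g37830 next to LOC_Os03g37840 of the same description, which stood at 0.0830 FPKM in stem and 11.8 in leaf blade. BBTI1 to BBTI4 formed a run of 4 lower genes.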

How the data were processed

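Each tissue had 1 deposited table of FPKM values and the ends of an interval for each value, from paired-end RNA-seq of total RNA. The authors' FPKM values are named as such per the file headers. TopHat is named, without a version, in the submitters' processing notes. The quantifier, genome build and annotation stay unnamed in the labels and headers, so coordinates carry no build; starts were raised by 1, as the values read as counted from 0. FPKM depends on the gene models, and reads of close copies or overlapping loci may be split between them.

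Rows with 1 identifier, found once in each table, were joined, using Python 3.11.15, pandas 2.3.3, numpy 2.4.6 and matplotlib 3.10.9. The ratio was that of (FPKM + 1) on the log2 scale, for genes at 1 FPKM or more in stem or leaf blade, called at 4-fold. Fragments were implied from the width of the intervals, by taking each interval as 2 standard errors of a Poisson count. Because the tables hold no counts and each tissue had 1 library, no test was run, and intervals cover counting error only. The calculation was tested on simulated data.

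Genes were grouped by their deposited descriptions into 86 families. Of these, 23 had their search words corrected and 11 were added after descriptions and values were seen. Added were plastocyanin-like, O-methyltransferase, DUF581, harpin-induced, heavy metal-associated and transporter family genes. So were TPX2, IQ-motif, family 17 glycosyl hydrolase, VQ and early nodulin 93 genes. All genes and lists were chosen with earlier results of these data known. Genes named were the 12 highest and 12 lowest ratios with a specific description at 10 FPKM or more, up to 3 per family and direction at 5 FPKM or more, and a list of known genes of which 32 of 34 were found. Both of the first sets needed implied fragments that differed the same way by 2-fold, or a value of 0 in the lower tissue. LOC_Os11g14220, LOC_Os03g51600, LOC_Os01g03340, LOC_Os01g04050, LOC_Os04g41560, LOC_Os07g34260 and LOC_Os06g43860 were named after their values were seen. No promoter or protein sequences were used here. Alternatives tried were pseudocounts of 0.1 and 5 FPKM, no filter or one at 5 FPKM, rescaling without the 50 most abundant genes, thresholds of 2-fold and 8-fold, genes found once in all 3 tables, removal of overlapping loci, fragments that also differed, and the nearest interval bounds. Genes found once in all 3 tables were kept at 1 FPKM or more in any of the 3 tissues.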

Additional observations from a re-analysis of the deposited data

Results flagged for a closer look

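A row of the stem table with no gene identifier, which the comparison does not use, had 57111 FPKM (interval 30189 to 84034). It lay on chromosome 10, 2755965 to 2756070, no leaf blade row overlapped it, and it made up 5.95% of all FPKM in the stem table from 18 implied fragments. Its value was flagged because it is a signal in data outside the comparison, above that of every gene compared.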

How the results depend on the processing

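With 1 library per tissue no library could be left out, and depth limits precision through the intervals alone. No paired analysis was possible because each tissue had 1 library. The counts moved with the pseudocount and the threshold. A pseudocount of 0.1 FPKM gave 2236 genes higher and 2290 lower, and one of 5 FPKM gave 595 and 558. A 2-fold threshold gave 3464 and 3693, and an 8-fold threshold 538 and 560. The other 7 alternatives left both counts within 1.5 times, between 1067 and 1328 higher and between 1082 and 1398 lower. Rescaling moved the median log2 ratio from -0.08 to -0.13. The share of calls that were higher ranged from 47.9% to 51.6%. The 404 genes named by the rules were followed through the alternatives other than the 2-fold and 8-fold thresholds. Of these genes, 133 lost their call under some alternative, 17 of them other than with a pseudocount of 5 FPKM, and none changed sign. Genes that an alternative leaves out were not counted as lost. It held 361 of them without overlapping loci and 391 among genes found once in all 3 tables. Over the alternatives run for the 86 families, 226 family counts moved by over 1.5 times, 110 of them with a pseudocount of 5 FPKM and 73 with one of 0.1 FPKM, and 72 family medians moved by over 1.5-fold, 24 of them with no filter. With no filter, which by its construction adds genes near 0, the median was 0.51 for fasciclin, COBRA and arabinogalactan proteins, 0.12 for RALF peptides and 0.22 for IQ-motif proteins. Family medians changed sign by over 1.5-fold in 5 cases. With a filter at 5 FPKM, that of the Bowman-Birk inhibitors went from 1.77 to -0.90 as BBTI5 fell out, that of kinesins from 0.44 to -0.22 and that of glutamine, glutamate and asparagine enzymes from -0.65 to 0.12. Without overlapping loci, family 17 glycosyl hydrolases went from -0.36 to 0.54. The setting of genes found once in all 3 tables also let in genes that reached 1 FPKM only in node. It held 20097 genes, against 18794 in the main comparison, so it adds genes near 0 in stem and leaf blade. In it, 3-ketoacyl-CoA synthases and wax genes went from -0.61 to 0.02. Apart from BBTI5, the cause was not tested. Among genes in all 3 tables no Bowman-Birk inhibitor was lower, since BBTI1 to BBTI4 are not among those genes. The laccase and dirigent median was 0.69 there, that of class III peroxidases 0.37 and that of IQ-motif proteins 0.94, and with the nearest interval bounds 2 metallothioneins were higher.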
